A study of Mus musculus with 36 samples.

Results

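The Krüppel-like factors Klf2, Klf3, Klf4, Klf6, Klf10 and Klf13, the early growth response factors Egr1, Egr2 and Egr3, and the EGR corepressor Nab2 were followed through the conversion of primary mouse B cells into macrophage-like cells (BMT). These 10 genes were taken by family and symbol, with earlier results of these data known, and stand among the 40354 genes of the deposited count tables. All 10 were among the 17277 genes that passed the filter on low counts and were tested.

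B cell precursors from bone marrow of C57BL/6J mice were infected with a retrovirus that carries C/EBPα fused to the estrogen receptor (ER) and a human CD4 tag, and hCD4+ cells were plated on inactivated mouse embryonic fibroblast (MEF) feeders in IL-7 medium. The constructs were the wild-type protein (WT), and C/EBPα in which arginine 35 was replaced by alanine (R35A) or by lysine (R35K). Estradiol (E2), which moves the fusion protein into the nucleus, was added together with myeloid cytokines, and RNA-seq libraries were made at 0, 1, 3, 6, 18 and 120 hours post induction (hpi), with 2 replicates for each of the 18 construct and timepoint groups. The question was how the loss of arginine 35 alters the speed and course of gene expression during BMT. The 0 hpi cells of every construct carry the retrovirus and were not induced. No library of cells given cytokines or ER activation without a C/EBPα fusion was analysed here, so the effects of C/EBPα, E2, cytokines and time in the new medium cannot be told apart. Age and sex of the mice are not given in the labels, nor whether the 2 replicates came from separate animals or cultures, and p-values then measure only the spread between these samples. Total counts ranged from 13044456 to 23131776 per library over the 36 libraries, with a median of 15471229.5.

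KLF and EGR proteins bind DNA through zinc fingers at their C-terminal end, KLFs at GC-rich and CACCC sequences and EGRs at a GC-rich element of their own. EGR genes are immediate-early genes, switched on within minutes by growth factors and cytokines through MAPK signaling and serum response factor, and EGR proteins in turn induce Nab2, which binds and restrains them. In blood, Egr1, Egr2 and Klf4 are known for roles in monocyte and macrophage differentiation, while Klf2 is known for keeping lymphocytes and macrophages quiescent.

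The sequences upstream of 3 members are shown because the results below turn on these genes. A CArG box, part of the serum response element known from immediate-early genes, was matched in the promoters of 1 of them. RefSeq entries (build GRCm38.p6) were found for 7 of the 10 members, in 11 windows of 300 bases that run from 250 bases before to 50 bases after a start site. Egr1, Egr3 and Klf10 had no entry, so their promoters were not searched. Capitals mark a CArG box, the core of the serum response element, in the 2 Egr2 windows, and the GC box GGGCGG, in either orientation, in Klf2 and Klf6. All are written on the plus strand, which is the strand of these genes, without the last 50 bases.

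Egr2 chr10:67537316-67537565: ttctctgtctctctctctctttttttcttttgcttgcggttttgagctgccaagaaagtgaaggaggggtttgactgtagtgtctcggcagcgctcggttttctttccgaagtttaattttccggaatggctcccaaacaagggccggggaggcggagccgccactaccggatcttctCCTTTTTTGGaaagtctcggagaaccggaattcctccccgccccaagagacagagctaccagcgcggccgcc
Egr2 chr10:67537619-67537868: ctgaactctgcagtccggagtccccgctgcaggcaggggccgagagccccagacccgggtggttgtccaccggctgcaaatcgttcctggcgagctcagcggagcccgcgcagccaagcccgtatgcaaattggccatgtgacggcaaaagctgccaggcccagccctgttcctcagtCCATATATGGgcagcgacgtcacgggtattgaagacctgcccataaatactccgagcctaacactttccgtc
Klf2 chr8:72318812-72319061: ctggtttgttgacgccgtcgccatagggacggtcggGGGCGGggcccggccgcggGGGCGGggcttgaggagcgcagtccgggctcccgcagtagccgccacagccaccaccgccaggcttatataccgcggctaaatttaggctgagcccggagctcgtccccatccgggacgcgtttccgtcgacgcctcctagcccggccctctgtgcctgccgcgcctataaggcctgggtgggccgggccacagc
Klf6 chr13:5861239-5861488: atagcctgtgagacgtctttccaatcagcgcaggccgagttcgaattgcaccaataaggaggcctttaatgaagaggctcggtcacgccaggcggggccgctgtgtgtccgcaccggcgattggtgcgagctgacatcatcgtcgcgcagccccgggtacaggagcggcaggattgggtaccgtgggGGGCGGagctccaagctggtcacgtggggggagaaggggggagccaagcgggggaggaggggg

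A CArG box was found in 4 of the 5 Egr2 windows, 3 of which overlap and hold the same box, and in no window of Klf2, Klf3, Klf4, Klf6, Klf13 or Nab2. Among 32851 promoter windows of 27025 mouse genes, 1.63% held one. In both Egr2 windows shown it lies 72 bases before the start site. GGGCGG was present in the windows of Klf2, Klf3, Klf4, Klf6, Klf13 and Nab2 and in 2 of the 5 of Egr2, against 35.7% of all windows, and CACCC stood in 57.5% of all windows. The palindromic C/EBP site TTGCGCAA (0.183% of all windows), the AP-1 site TGANTCA (7.81%), the PU.1 site GAGGAAGT (3.2%) and the EGR site GCGTGGGCG (0.612%) were in none of the member windows, and the looser C/EBP pattern TTNNGNAA (40.7%) was only in the first Egr2 window printed above. Both strands were searched, and matches of TTNNGNAA include overlapping ones and those of TTGCGCAA. A match describes the letters in the window and not a bound site.

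In the GENCODE vM21 annotation of mm10 all 10 members are protein coding. Egr1 lies at chr18:34859823-34864984, Egr2 at chr10:67535475-67542188, Egr3 at chr14:70077203-70082614 and Nab2 at chr10:127660918-127668568. Klf2 lies at chr8:72319033-72321656, Klf3 at chr5:64803388-64832901, Klf4 at chr4:55527143-55532466, Klf6 at chr13:5861482-5870394, Klf10 at chr15:38291463-38300706 and Klf13 at chr7:63886351-63938915. Klf3 overlaps C230096K16Rik on its own strand and Gm20033 on the other, Klf13 overlaps E030018B13Rik and Gm27252 on the other strand, and Nab2 overlaps Gm16229, Nemp1 and Stat6 on the other strand. The strand setting of the deposited counts is not given in the sources used here, so reads of these 3 members and their neighbours may be mixed.

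Levels below are counts scaled to a library size of 1000000 (CPM), scaled between libraries by the TMM method of edgeR. A fold change is a log2 ratio from 1 edgeR quasi-likelihood fit over all 36 libraries, given with its standard error (SE) and with a p-value adjusted by the Benjamini-Hochberg method over the 17277 genes. A gene was called changed, and is written as higher or lower, where the change reached 1.5-fold and the adjusted p was at most 0.05.

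Egr1, the founding member of the EGR family and a factor that favors the macrophage over the granulocyte fate, rose within the first hour with every construct, and at 120 hpi the constructs parted. With WT its levels were 202 and 203 CPM at 0 hpi, 425 and 423 at 1 hpi, 494 and 514 at 3 hpi, 485 and 488 at 6 hpi, 421 and 407 at 18 hpi and 429.9 and 423 at 120 hpi. With R35A they were 221 and 217 CPM at 0 hpi, 409 and 418 at 1 hpi, 414 and 416 at 3 hpi, 430.4 and 436 at 6 hpi, 433 and 435 at 18 hpi and 192 and 200.1 at 120 hpi. With R35K they were 208 and 219 CPM at 0 hpi, 517 and 511 at 1 hpi, 521 and 520.0 at 3 hpi, 410.4 and 408 at 6 hpi, 397 and 397 at 18 hpi and 339 and 344 at 120 hpi. All WT libraries from 1 hpi on stood above both uninduced ones, while both R35A libraries at 120 hpi lay below both R35A libraries at 0 hpi. The log2 change at 1 hpi was 1.06 ± 0.03, adjusted p = 1.4e-33 with WT, 0.91 ± 0.03 with R35A and 1.27 ± 0.03 with R35K. At 120 hpi it was 1.07 ± 0.03, adjusted p = 1.0e-34 with WT and 0.67 ± 0.03, adjusted p = 1.7e-25 with R35K, but −0.16 ± 0.03, adjusted p = 3.3e-05 with R35A, a difference from 0 hpi that is under 1.5-fold and was not called.

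Egr2, an EGR factor of macrophages and of T cell tolerance, had the largest range of the 10 members, 25.3-fold between the lowest group (WT at 0 hpi) and the highest (WT at 120 hpi). With WT its levels were 7.54 and 8.48 CPM at 0 hpi, 26.9 and 27.7 at 1 hpi, 28.4 and 29.3 at 3 hpi, 30.1 and 29.2 at 6 hpi, 27.4 and 29.1 at 18 hpi and 203 and 203 at 120 hpi. With R35A they were 7.72 and 10.1 CPM at 0 hpi, 41.1 and 39.5 at 1 hpi, 42.8 and 43.1 at 3 hpi, 36.9 and 37.5 at 6 hpi, 40.6 and 42.4 at 18 hpi and 98.4 and 95.5 at 120 hpi. With R35K they were 9.45 and 8.58 CPM at 0 hpi, 49.4 and 48.1 at 1 hpi, 48.7 and 46.2 at 3 hpi, 43.4 and 41.1 at 6 hpi, 44.0 and 49.0 at 18 hpi and 142 and 144 at 120 hpi. It climbed in 2 stages: a first rise complete at 1 hpi, then little movement up to 18 hpi, then a second rise up to 120 hpi. The R35A and R35K libraries stood above the WT libraries in the first stage and below them in the second, with no overlap at either 1 or 120 hpi. At 1 hpi the difference between R35A and WT was not called, neither in level nor in the change from 0 hpi. The log2 change at 1 hpi was 1.77 ± 0.09, adjusted p = 1.2e-23 with WT, 2.16 ± 0.08 with R35A and 2.43 ± 0.08 with R35K, and at 120 hpi 4.66 ± 0.07, adjusted p = 4.8e-50, 3.43 ± 0.07 and 3.98 ± 0.07 in the same order.

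Egr3, which acts beside Egr2 in lymphocytes, differed in direction between constructs at 120 hpi. With WT its levels were 21.1 and 21.1 CPM at 0 hpi, 32.2 and 33.9 at 1 hpi, 34.5 and 33.7 at 3 hpi, 37.2 and 36.1 at 6 hpi, 37.4 and 41.4 at 18 hpi and 48.9 and 46.4 at 120 hpi. With R35A they were 23.4 and 22.3 CPM at 0 hpi, 32.8 and 32.7 at 1 hpi, 32.8 and 34.6 at 3 hpi, 32.2 and 34.2 at 6 hpi, 33.3 and 34.0 at 18 hpi and 16.5 and 17.1 at 120 hpi. With R35K they were 22.7 and 21.6 CPM at 0 hpi, 40.1 and 41.3 at 1 hpi, 42.1 and 41.1 at 3 hpi, 34.8 and 32.8 at 6 hpi, 32.4 and 34.0 at 18 hpi and 21.3 and 20.6 at 120 hpi. In WT the 2 libraries at 120 hpi were the highest of the series, and in R35A the 2 libraries at 120 hpi were the lowest. With WT Egr3 was called higher than at 0 hpi at all 5 later timepoints, reaching 1.18 ± 0.07, adjusted p = 7.7e-22 at 120 hpi. With R35A none of the 5 was called, with log2 changes of 0.52 ± 0.07 at 1 hpi and −0.44 ± 0.08, adjusted p = 2.8e-06 at 120 hpi. With R35K it was higher at 1, 3 and 6 hpi and was not called at 120 hpi (−0.08 ± 0.08, adjusted p = 0.37).

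Nab2, the corepressor that EGR proteins induce and that limits their activity, rose less than Egr2, and with WT was called later. With WT the group mean was 25.6 ± 0.844 CPM (SD, n = 2) at 0 hpi, 31.5 ± 0.118 CPM at 1 hpi, 51.2 ± 3.30 CPM at 18 hpi and 58.7 ± 6.78 CPM at 120 hpi, and Nab2 was called from 6 hpi on. With R35A the mean was 27.3 ± 1.72 CPM at 0 hpi, already 48.0 ± 2.63 CPM at 1 hpi (0.81 ± 0.07, adjusted p = 6.6e-15), and 38.5 ± 5.18 CPM at 120 hpi, where it was no longer called. With R35K it was 37.7 ± 1.46 CPM at 1 hpi and 41.9 ± 0.936 CPM at 120 hpi. The WT libraries at 120 hpi, 63.5 and 53.9 CPM, stood above the R35A libraries, 42.1 and 34.8 CPM.

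Klf2, a factor of lymphocyte quiescence and trafficking and a brake on macrophage activation, set the R35K cells apart from the other two. With WT its levels were 16.7 and 18.7 CPM at 0 hpi, 16.2 and 16.1 at 1 hpi, 18.103 and 15.4 at 3 hpi, 20.6 and 17.0 at 6 hpi, 18.4 and 19.3 at 18 hpi and 36.1 and 31.8 at 120 hpi. With R35A they were 14.6 and 18.6 CPM at 0 hpi, 17.0 and 17.7 at 1 hpi, 20.3 and 22.8 at 3 hpi, 22.4 and 22.8 at 6 hpi, 26.4 and 28.1 at 18 hpi and 45.0 and 43.8 at 120 hpi. With R35K they were 15.8 and 17.2 CPM at 0 hpi, 30.3 and 28.4 at 1 hpi, 30.2 and 28.6 at 3 hpi, 41.9 and 39.5 at 6 hpi, 42.8 and 43.2 at 18 hpi and 41.8 and 39.2 at 120 hpi. With WT the libraries between 1 and 18 hpi stayed between 15.4 and 20.6 CPM, with R35A Klf2 was first called at 18 hpi, and with R35K both libraries at 1 hpi already stood above all WT libraries before 120 hpi. The log2 change with R35K was 0.83 ± 0.09, adjusted p = 8.7e-12 at 1 hpi and 1.38 ± 0.08 at 18 hpi, against −0.14 ± 0.10, adjusted p = 0.28 and 0.09 ± 0.10 with WT. At 120 hpi Klf2 was higher than at 0 hpi with every construct, by 0.94 ± 0.09 with WT, 1.40 ± 0.09 with R35A and 1.30 ± 0.09 with R35K.

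Klf6, a broadly expressed activator that takes part in inflammatory gene expression in macrophages, was the member with the highest level per kb in 120 hpi cells. With WT its levels were 376 and 353 CPM at 0 hpi, 361 and 355 at 1 hpi, 363 and 341 at 3 hpi, 404 and 389 at 6 hpi, 563 and 580.0 at 18 hpi and 1134 and 1170.2 at 120 hpi. With R35A they were 405 and 383 CPM at 0 hpi, 564 and 567 at 1 hpi, 608 and 596 at 3 hpi, 651 and 647 at 6 hpi, 654 and 651 at 18 hpi and 1108 and 1130.3 at 120 hpi. With R35K they were 388 and 363 CPM at 0 hpi, 574 and 598 at 1 hpi, 618 and 605 at 3 hpi, 775 and 804 at 6 hpi, 887 and 888 at 18 hpi and 1236 and 1297 at 120 hpi. The WT libraries at 1 and 3 hpi overlapped those at 0 hpi, whereas all R35A and R35K libraries from 1 hpi on stood above their own uninduced libraries. Klf6 was first called at 1 hpi with R35K (0.64 ± 0.04, adjusted p = 9.7e-23), at 3 hpi with R35A (0.61 ± 0.04, adjusted p = 6.7e-22) and at 18 hpi with WT (0.65 ± 0.04, adjusted p = 5.8e-23). The constructs ended close to each other at 120 hpi, with log2 changes of 1.66 ± 0.04, 1.51 ± 0.04 and 1.75 ± 0.04 for WT, R35A and R35K.

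Klf10, also known as TGF-beta-inducible early gene and a repressor of proliferation, was called at 1 hpi with each construct and then differed in course. With WT its levels were 64.3 and 63.6 CPM at 0 hpi, 112 and 109 at 1 hpi, 110.3 and 115 at 3 hpi, 108 and 112 at 6 hpi, 120.18 and 118 at 18 hpi and 154 and 157 at 120 hpi. With R35A they were 65.8 and 66.2 CPM at 0 hpi, 170.2 and 166 at 1 hpi, 177 and 175 at 3 hpi, 159 and 155 at 6 hpi, 231 and 222 at 18 hpi and 82.8 and 80.1 at 120 hpi. With R35K they were 62.8 and 63.6 CPM at 0 hpi, 187 and 197 at 1 hpi, 177 and 180.2 at 3 hpi, 170.2 and 174 at 6 hpi, 163 and 163 at 18 hpi and 112 and 118 at 120 hpi. WT cells held their highest level at 120 hpi, while R35A cells held theirs at 18 hpi and R35K cells at 1 hpi. The log2 change at 1 hpi was 0.79 ± 0.04, adjusted p = 4.3e-23 with WT, 1.35 ± 0.04 with R35A and 1.60 ± 0.04 with R35K. At 120 hpi it was 1.28 ± 0.04, adjusted p = 1.2e-33 with WT, 0.87 ± 0.04 with R35K and 0.30 ± 0.04, adjusted p = 1.7e-08 with R35A, the last of these under 1.5-fold.

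Between the lowest and the highest group Klf3 spanned 2.13-fold, Klf4 2.44-fold and Klf13 3.06-fold. Klf3, a repressor that recruits C-terminal binding proteins, ranged from 61.8 to 136.9 CPM over the 36 libraries. Its mean was highest at 18 hpi with each construct (124 ± 4.69 CPM with WT, 136 ± 1.74 CPM with R35A, 121 ± 3.43 CPM with R35K) and at 120 hpi was called with none. The 18 hpi libraries overlapped those at 1 hpi with R35A and those at 6 hpi with R35K. Klf4, a pluripotency factor that is also required for the inflammatory type of monocyte, ranged from 162.0 to 412.4 CPM. With WT it was first called at 18 hpi (0.95 ± 0.04, adjusted p = 8.7e-31), with R35K at 3 hpi (0.64 ± 0.03) and with R35A at 1 hpi (0.67 ± 0.03, adjusted p = 2.3e-24). Klf13, known as an activator of the chemokine gene Ccl5 in T cells, ranged from 106.1 to 339.6 CPM and was called only at 120 hpi, with log2 changes of 1.39 ± 0.04, adjusted p = 1.2e-37 with WT, 0.92 ± 0.04 with R35A and 1.04 ± 0.04 with R35K. With WT its 2 libraries at 18 hpi lay below both uninduced ones.

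**Figure D1:**
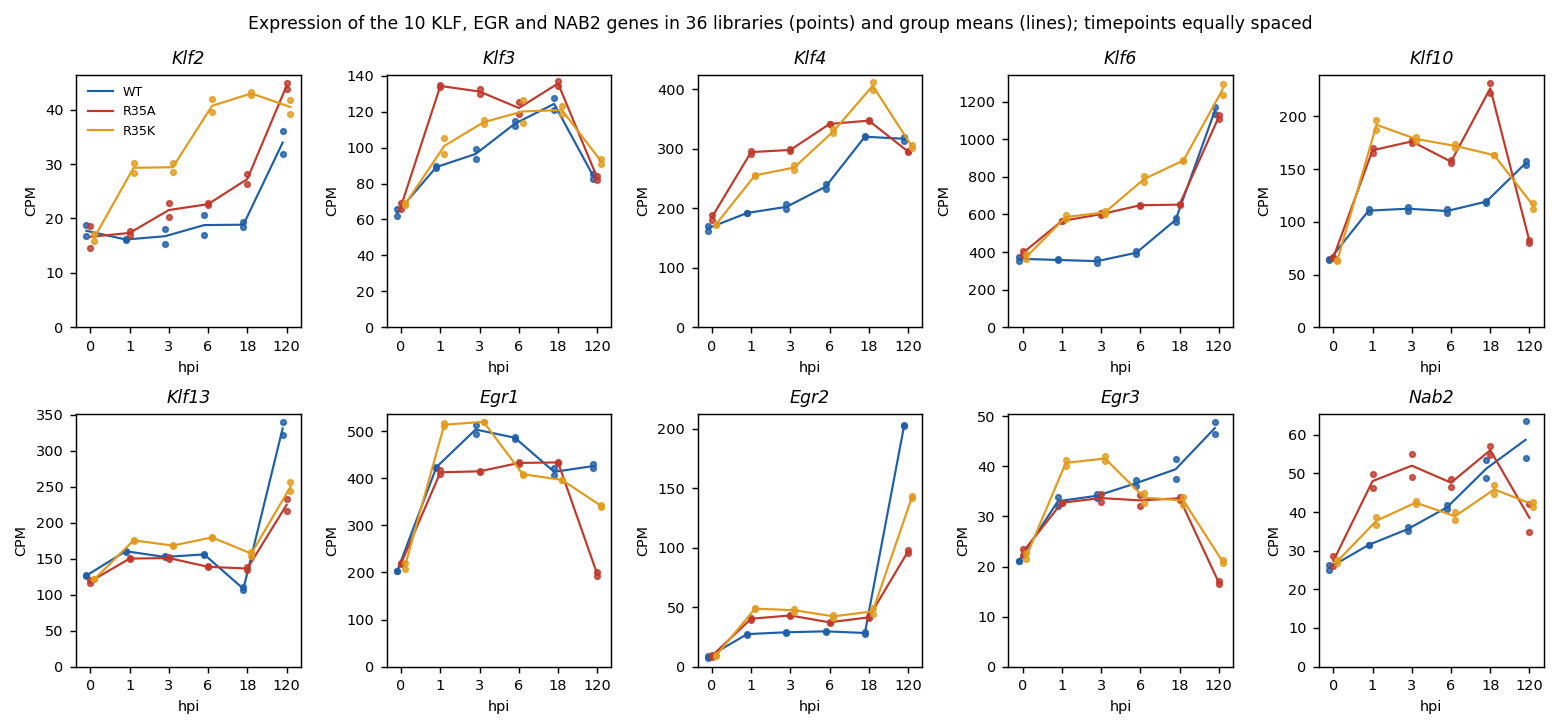
Level of each member in CPM against the time after induction, with 1 point per library and lines through the means of the 2 replicates for WT, R35A and R35K. Egr2 spans the widest range, 25.3-fold, and Egr1, Egr3 and Klf10 show WT above R35A at 120 hpi.

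To compare genes with each other, CPM were divided by the length of all annotated exons of the gene in kb. In uninduced WT cells Klf6 had the highest level, 83.0 ± 3.69 CPM per kb (SD, n = 2), followed by Klf4 with 54.5 ± 1.98 and Egr1 with 45.2 ± 0.201, and Egr2 the lowest, 2.36 ± 0.194. After 1 hour Egr1 led in WT cells with 94.6 ± 0.363 CPM per kb, while Klf6 led in R35A and R35K cells with 129 ± 0.603 and 134 ± 3.82. At 120 hpi Klf6 led with every construct, with 262 ± 5.84 in WT, 255 ± 3.54 in R35A and 288 ± 9.87 in R35K. Egr2 had by then passed Egr3, Klf2, Klf3, Klf10, Klf13 and Nab2 in WT cells, with 59.7 ± 0.0982 CPM per kb. When the 18 groups were ordered by the level of 1 gene, between 2 (Klf4) and 11 (Klf3, Egr3 and Nab2) of the 17 pairs of neighbouring groups had overlapping replicates. Neighbours in that order were thus often not separated by the 2 replicates, and Klf4 and Klf13, with 2 and 4 such pairs, had the cleanest order.

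Against their own uninduced cells, no member was called lower at any timepoint with any construct by edgeR or DESeq2, where between 9.72% and 36.5% of all genes tested were lower. By the adjusted p of edgeR alone 3 of the 150 changes were downward, those of Klf13 with WT at 18 hpi and of Egr1 and Egr3 with R35A at 120 hpi, and the same number had an unadjusted p under 0.05. With WT 4 of the 10 were higher at 1 hpi, against 10% of all genes, 5 at 3 hpi against 12%, 6 at 6 hpi against 15.5%, 8 at 18 hpi against 23.7% and 9 at 120 hpi against 25.2%. With R35A 6 of the 10 were higher at 1 hpi, against 18.9% of all genes, 7 at 3 hpi against 18.7%, 7 at 6 hpi against 18.9%, 8 at 18 hpi against 21.5% and 5 at 120 hpi against 26.5%. With R35K 6 of the 10 were higher at 1 hpi, against 16.4% of all genes, 9 at 3 hpi against 16.7%, 8 at 6 hpi against 17.6%, 8 at 18 hpi against 19.3% and 8 at 120 hpi against 26.7%. The count thus grew with time in WT, as did the share of all genes called higher. In R35A the count was lowest at 120 hpi, where that share was highest. The 4 members called at 1 hpi with WT were Klf10, Egr1, Egr2 and Egr3, and the 1 member not called there at 120 hpi was Klf3. The median log2 change of the members at 120 hpi was 1.19 with WT, 0.58 with R35A and 0.84 with R35K, against −0.23, −0.18 and −0.20 over all genes.

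**Figure D2:**
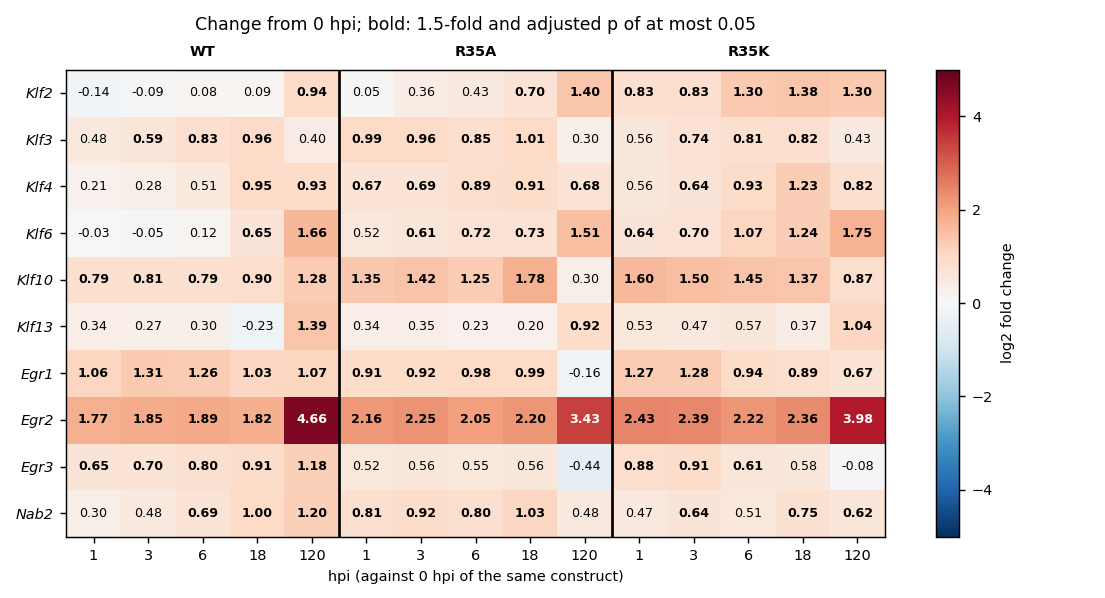
Log2 fold change of each member from 0 hpi of the same construct at each later timepoint for WT, R35A and R35K. Egr2 reaches 4.66 in WT at 120 hpi, while Egr3 in R35A lies below 0 there at −0.44.

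Between 1 and 18 hpi the members moved by small steps. Of the 90 steps from 1 to 3, 3 to 6 and 6 to 18 hpi (10 members, 3 constructs) none was called by edgeR and 1 by DESeq2 (Klf6 with WT from 6 to 18 hpi, 0.61), where the share of all genes called at the 3 steps was 0.984%, 1.04% and 13.4% with WT, 0.515%, 0.168% and 4.16% with R35A, 0.353%, 1.22% and 5.42% with R35K. By the adjusted p of edgeR alone, without the 1.5-fold minimum, 30 of the 90 steps passed, 23 upward and 7 downward, and 45 had an unadjusted p under 0.05. By adjusted p alone the share of all genes at the 3 steps was 10.3%, 13.1% and 43.8% with WT. It was 6.45%, 2.8% and 19.5% with R35A, and 4.97%, 11.5% and 23.5% with R35K. The largest steps of the members were Klf10 with R35A from 6 to 18 hpi (0.53), Klf6 with WT from 6 to 18 hpi (0.53) and Klf13 with WT from 6 to 18 hpi (−0.53). The steps added up for some members: the mean level at 18 hpi over that at 1 hpi was 1.67 for Klf4, 1.63 for Nab2 and 1.60 for Klf6 with WT, 1.57 for Klf2 with R35A, and 1.59 for Klf4 and 1.51 for Klf6 with R35K. Larger steps came from 18 to 120 hpi. With WT 4 members were higher at 120 than at 18 hpi (Klf2, Klf6, Klf13 and Egr2) and none lower, against 60.5% of all genes called in either direction. With R35A the same 4 were higher and Klf3, Klf10, Egr1 and Egr3 lower, against 53.8%. With R35K Klf13 and Egr2 were higher and Egr3 lower, against 52.7%. The 3 largest falls were those of Klf10, Egr1 and Egr3 in R35A cells, by 1.48, 1.15 and 1.00 on the log2 scale, each with an SE between 0.03 and 0.08.

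R35A and WT cells were compared at the same timepoint, since their counts were deposited in 1 table, to ask how the loss of arginine 35 alters the members. At 0 hpi none of the 10 was called by edgeR or DESeq2 (4 had an unadjusted p under 0.05 in each), and 0% of all genes were called. At 1 hpi Klf3, Klf4, Klf6, Klf10 and Nab2 were higher in R35A, against 9.6% of all genes, at 3 hpi Klf6 and Klf10 against 8.41%, at 6 hpi Klf6 against 6.11%, and at 18 hpi Klf10 against 7.02%. At 120 hpi Klf10, Egr1, Egr2, Egr3 and Nab2 were lower in R35A, against 6.37% of all genes, and no member was higher. Among these, only Klf10 and Nab2 had been called higher at an earlier timepoint. The R35A mean of Egr2 had been above that of WT from 1 to 18 hpi without a call. That of Egr3 had been below WT from 1 to 18 hpi, and that of Egr1 below at 1, 3 and 6 hpi and above at 18 hpi. All 3 EGR genes and their corepressor were therefore in the lower group, with log2 differences of −1.50 ± 0.08, adjusted p = 4.3e-24 for Egr3, −1.12 ± 0.03, adjusted p = 7.8e-34 for Egr1, −1.07 ± 0.05, adjusted p = 6.4e-26 for Egr2 and −0.62 ± 0.07, adjusted p = 3.4e-10 for Nab2. Nab2 lies near the 1.5-fold limit, and fell short of it without WT replicate 1 or without R35A replicate 2 at 120 hpi (−0.49 in each case). Klf2, Klf3, Klf4, Klf6 and Klf13 were not called at 120 hpi, with log2 differences between −0.56 (Klf13) and 0.38 (Klf2).

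The same question was then asked of the change from 0 hpi, in which an offset between constructs at the start drops out. The change of R35A and that of R35K cells are each set against the same WT libraries, so the values for the 2 mutants share their controls. At 1 hpi no member's change differed between R35A and WT by 1.5-fold or more, against 13.9% of all genes. By the adjusted p of edgeR alone 7 passed there, against 33.2% of all genes, and 6 of the 7 were larger in R35A. At that timepoint 7 also had an unadjusted p under 0.05, and DESeq2 called Klf10 (0.59). Klf6 and Klf10 rose more in R35A at 3 hpi (0.66 ± 0.05 and 0.60 ± 0.06; 5.81% of all genes), Klf6 at 6 hpi (0.60 ± 0.05; 4.19%), and Klf2 and Klf10 at 18 hpi (0.61 ± 0.13 and 0.88 ± 0.06; 5.62%). The Klf2 difference at 18 hpi was 0.54 under DESeq2 or its size factors and so under 1.5-fold. At 120 hpi Klf10, Egr1, Egr2, Egr3 and Nab2 had changed less in R35A, 5 of 10 against 4.58% of all genes. The largest difference of the 10 members was that of Egr3, −1.62 ± 0.11, adjusted p = 1.2e-18, followed by Egr2, −1.24 ± 0.12, adjusted p = 4.0e-12, Egr1, −1.23 ± 0.05, adjusted p = 2.7e-28, Klf10, −0.98 ± 0.06, adjusted p = 1.3e-19, and Nab2, −0.72 ± 0.11, adjusted p = 4.1e-07. The median difference over the members at 120 hpi was −0.59, against 0.07 over all genes.

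R35K and WT cells differed in the change of Klf2, Klf6, Klf10, Klf13, Egr2 and Egr3. At 1 hpi the change was larger in R35K for Klf2 (0.97 ± 0.14, adjusted p = 5.2e-08), Klf10 (0.81 ± 0.06), Klf6 (0.67 ± 0.05) and Egr2 (0.66 ± 0.13), 4 of 10 against 6.84% of all genes. At 3 and 6 hpi it was larger for Klf2, Klf6 and Klf10, 3 of 10 against 6.14% and 7.66%. At 18 hpi it was larger for Klf2 (1.29 ± 0.13, adjusted p = 4.1e-12), Klf6 (0.59 ± 0.05) and Klf13 (0.60 ± 0.06), against 8.91% of all genes. The last 2 sit at the 1.5-fold limit and were 0.49 each under DESeq2 or its size factors. At 120 hpi it was smaller for Egr3 (−1.26 ± 0.11, adjusted p = 1.6e-14) and Egr2 (−0.68 ± 0.12), 2 of 10 against 2.63% of all genes.

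Set against each other, the R35A and R35K cells were called different in 2 members. Klf2 had risen more in R35K at 1, 6 and 18 hpi, by 0.79 ± 0.13, adjusted p = 5.6e-06, 0.87 ± 0.13 and 0.68 ± 0.13, and at 3 hpi the difference of 0.47 ± 0.13 was not called. Egr1 at 120 hpi was higher in its change in R35K by 0.84 ± 0.05, adjusted p = 1.9e-19. These are 1 of 10 members at 1, 6, 18 and 120 hpi, against 4.15%, 4.69%, 2.26% and 0.724% of all genes higher in R35K, and 0 of 10 at 3 hpi against 2.25%, where edgeR gave 6 with an unadjusted p under 0.05 and DESeq2 called 0. The difference of Klf2 at 18 hpi was 0.48 without R35A replicate 2 at 0 hpi. At 0 hpi none of the 10 was called between R35K and WT or R35A cells by edgeR or DESeq2 (1 had an unadjusted p under 0.05 in each comparison), against 0% and 0.00579% of all genes.

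**Figure D3:**
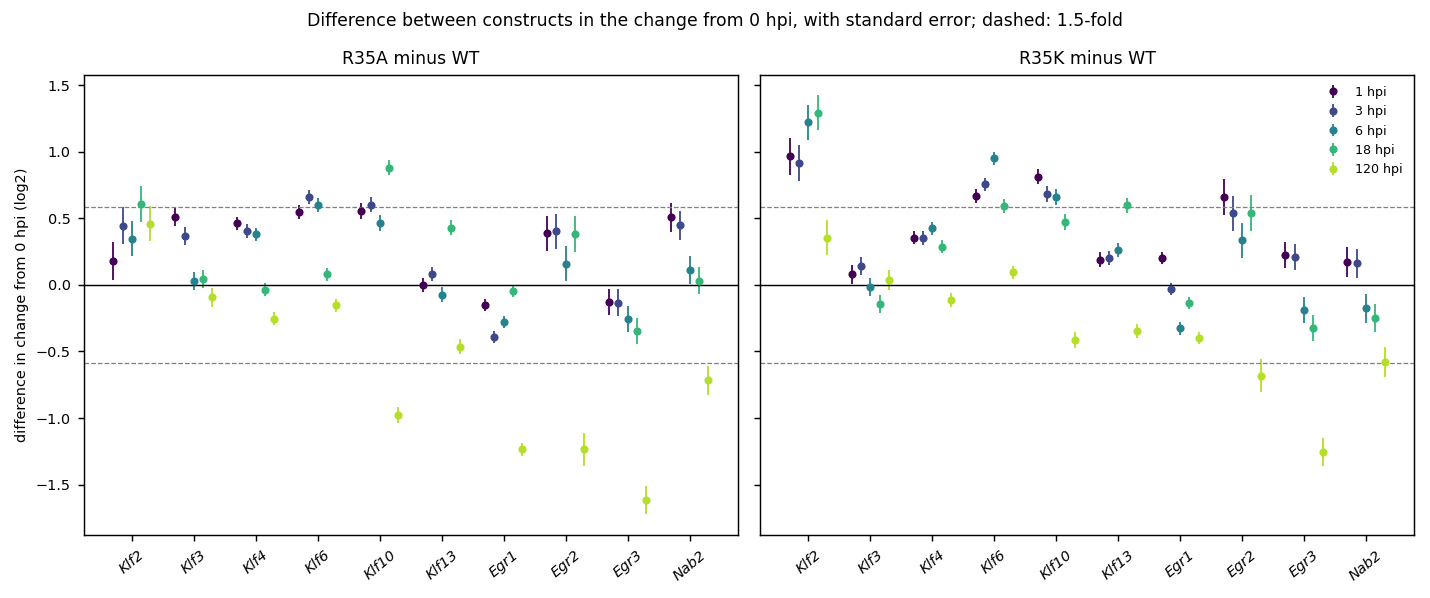
Difference between constructs in the log2 change from 0 hpi for each member at each timepoint, for R35A against WT and R35K against WT, with the SE as bars. Points below 0 at 120 hpi reach −1.62 for Egr3 in R35A against WT, and Klf2 in R35K against WT reaches 1.29 at 18 hpi.

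The other genes of the families and of the pathways around them were taken from lists that hold none of the members. Of 20 other KLF and SP factors 14 were tested. At 120 hpi 3 of them were higher and 8 lower with WT, against 25.2% and 36.5% of all genes. With R35A and with R35K 8 were lower, against 35.3% and 35.5% of all genes, and 0 were higher by edgeR or DESeq2, where 1 and 2 had an upward change at an unadjusted p under 0.05. Among them Klf5, which drives proliferation in epithelia, fell from 8.34 to 0.596 CPM with WT (−3.79 ± 0.27, adjusted p = 1.0e-18), and Klf12, a repressor, fell from 4.41 CPM to 0 counts in both WT libraries. In the change at 120 hpi Klf7 and Klf11 were lower in R35A than in WT (−0.87 ± 0.10, adjusted p = 1.8e-10 and −0.83 ± 0.10, adjusted p = 1.3e-09). Of Egr4, Nab1 and Wt1, Nab1, the other EGR corepressor, was higher at 120 hpi with WT (0.89 ± 0.06, adjusted p = 2.8e-20), and Egr4 and Wt1 were lower with each construct, Egr4 from a mean of 0.663 CPM with WT.

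Of 12 other immediate-early genes tested, 7 were higher at 1 hpi with WT, 8 with R35A and 10 with R35K, against 10%, 18.9% and 16.4% of all genes. All 12 were higher at 120 hpi with each construct, against 25.2%, 26.5% and 26.7%. With WT the largest changes at 120 hpi were those of the AP-1 subunit Fos (4.62 ± 0.04, adjusted p = 2.0e-61), the RNA-destabilizing protein gene Zfp36 (4.03 ± 0.04, adjusted p = 9.8e-60), the stress factor Atf3 (3.96 ± 0.04, adjusted p = 5.5e-59) and the AP-1 subunit Fosb (3.201 ± 0.04, adjusted p = 3.7e-54). In the change at 120 hpi 2 of the 12 differed between R35A and WT, against 14.2% of all genes in either direction. Nr4a1, an orphan nuclear receptor, was lower in R35A (−1.26 ± 0.06, adjusted p = 4.4e-26) and Jun, an AP-1 subunit, was higher (0.60 ± 0.05, adjusted p = 1.2e-13). The median over the 12 at 120 hpi was −0.34.

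Inhibitors that MAPK signaling induces against itself were also followed. Of 10 tested, 4 were higher at 1 hpi with WT, against 10% of all genes, namely the MAPK phosphatase genes Dusp1, Dusp5 and Dusp6 and the Ras pathway inhibitor Spry4. At 120 hpi 5 were higher and 2 lower with WT, 3 and 5 with R35A, and 3 and 4 with R35K, where 25.2% and 36.5%, 26.5% and 35.3%, and 26.7% and 35.5% of all genes were higher and lower. In the change at 120 hpi Dusp5 (−1.75 ± 0.06, adjusted p = 1.1e-29), Dusp4 (−1.34 ± 0.07, adjusted p = 2.7e-23) and Dusp2 (−1.09 ± 0.08, adjusted p = 1.4e-17) were lower in R35A than in WT, and Spry2 (1.28 ± 0.12, adjusted p = 6.7e-13) and Spry1 were higher. Over all genes 14.2% were called in that change, in either direction. Of 6 SRF and ternary complex factor genes, which carry the signal to the CArG box, none was called higher at 1 hpi with any construct by edgeR or DESeq2. Of all genes 10%, 18.9% and 16.4% were higher there with WT, R35A and R35K. Of the 18 changes 8 were upward at an unadjusted p under 0.05. In the change at 1 hpi Elk4 was lower in R35A than in WT (−0.64 ± 0.06, adjusted p = 9.5e-14). Over all genes 13.9% were called in that change, in either direction. The mean of Elk4 went from 136 to 81.9 CPM with R35A and from 149 to 139 CPM with WT. At 120 hpi with WT Elk1 was higher and Elk4 lower, where 25.2% of all genes were higher and 36.5% lower.

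Genes known as targets were few. Among the tested targets of Klf2 and Klf4, Itgb7, an integrin chain, was higher at 120 hpi with WT (6.38 ± 0.09, adjusted p = 1.2e-51), and S1pr1, a receptor for lymphocyte egress, had a mean of 69.2 CPM at 0 hpi and 53.9 CPM at 120 hpi and was not called. In the change at 120 hpi Itgb7 was lower (−1.91 ± 0.21, adjusted p = 5.0e-11) and S1pr1 higher (0.76 ± 0.07, adjusted p = 3.5e-13) in R35A than in WT. The count over these targets is not given. Of 4 tested EGR targets, Tnf, the inflammatory cytokine, and Ndrg1 were higher and Cblb, a ubiquitin ligase of lymphocyte tolerance, was lower at 120 hpi with WT (6.26 ± 0.07, adjusted p = 4.6e-56, 2.04 ± 0.05, adjusted p = 5.0e-40 and −1.43 ± 0.05, adjusted p = 1.6e-31). The difference between R35A and WT turned with time for both higher genes: in the change from 0 hpi Tnf and Ndrg1 were higher in R35A at 1 hpi and lower at 120 hpi (−0.63 ± 0.16, adjusted p = 0.0026 and −1.04 ± 0.07, adjusted p = 1.3e-17). Of 9 cofactor and ubiquitin ligase genes, 3 were higher at 120 hpi with WT, Ctbp2, Wwp1 and Sap30, and the acetyltransferase gene Crebbp was lower. Of 8 genes of the TGF-beta pathway, which induces Klf10, Tgfb1 and Tgfbr2 were higher and Smad3 and Smad7 lower at 120 hpi with WT. Of all genes tested, 25.2% were higher and 36.5% lower at 120 hpi with WT, which are the shares for the EGR target, cofactor and TGF-beta lists alike.

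Markers of the cell types that the cultures could hold were measured in the same libraries. All 8 B cell markers were above the detection floor of 3 counts at 0 hpi, and their summed level was 3963 and 4024 CPM in the 2 WT libraries, 3668 and 3721 with R35A and 3826 and 3882 with R35K. It fell to 190.2 and 197, 130.1 and 132 and 179 and 180.2 CPM at 120 hpi in that order, while the sum of 8 macrophage markers rose from at most 56.8 CPM at 0 hpi to 20217 and 20382 with WT, 28931 and 31726 with R35A and 27146 and 27559 with R35K. Both sums had already moved at 1 hpi. The mean B cell sum was then 1891 CPM with WT, 597 with R35A and 1054 with R35K. The mean macrophage sum was 816, 3659 and 7894 CPM in that order. The part of this shift in the changes of the members was not tested. The labelled B cells thus carried B cell markers at the start and macrophage markers at the end. The 6 granulocyte markers summed to at most 42.2 CPM and the 3 T cell markers to at most 0.250 CPM in any library. At 0 hpi the mean granulocyte sum was 41.7 CPM with WT, 32.8 with R35A and 35.2 with R35K. At 1 hpi it was 1.74, 2.65 and 3.38 CPM in that order. The 5 heat shock genes taken as signs of handling summed to between 390.8 and 621 CPM and were lower at 1 hpi than at 0 hpi with each construct.

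The 10 fibroblast markers of the MEF feeders moved with time and construct. Their sum was 1263 and 1289 CPM at 0 hpi and 2544 and 2554 at 1 hpi with WT, 1328 and 1381 and 2828 and 2838 with R35A, and 1279.8 and 1341 and 2333 and 2411 with R35K. All 10 markers were above the floor at 0 and 1 hpi. The rise of this sum between 0 and 1 hpi, 1.998-fold with WT, 2.09-fold with R35A and 1.81-fold with R35K, went along with the rise of Egr1, Egr2, Klf10 and the other members called at 1 hpi. Its part in those changes was not tested, and in bulk samples fewer cells of a type and less RNA per cell cannot be told apart. At 120 hpi the sum had fallen to 149 and 172 CPM with WT, 524 and 529.8 with R35A and 389.8 and 458 with R35K, with Lum at 0 in every one of these libraries.

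**Figure D4:**
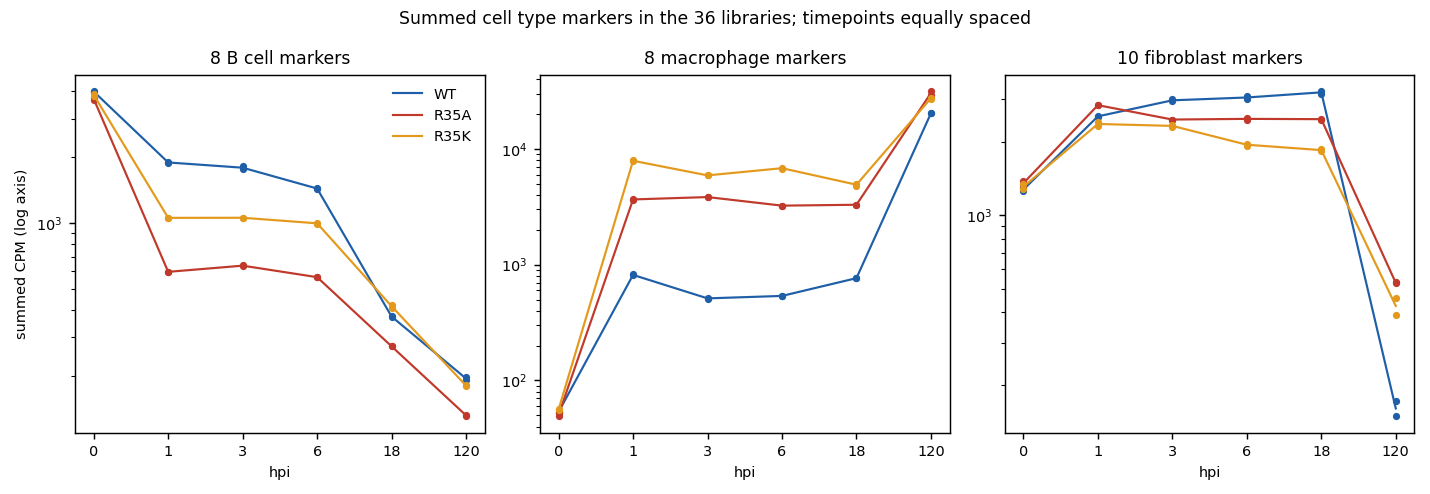
Summed CPM of the marker lists in each library, on a log axis, against the time after induction for WT, R35A and R35K. The B cell sum falls and the macrophage sum rises with each construct, and the feeder fibroblast sum rises about 2-fold at 1 hpi and is lowest at 120 hpi.

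As a description of pattern, the mean log2 level of each member over the 18 groups was correlated with that of 17220 other genes. The points share libraries and the common course from B cell to macrophage, so high values are frequent. Most like Egr2 were Plaur, the urokinase receptor (Pearson's r = 0.990), Arl4c (0.989) and Furin (0.989), and most like Egr1 were Bnip3l (0.937), Ptgs2 (0.912) and Pqlc1 (0.900). For Egr3 they were Olfr1373 (0.931), Map2k3 (0.898) and Flt3 (0.896), and for Nab2 Mboat7 (0.967), Sertad2 (0.954) and Zfand3 (0.953). Klf2 was most like 2510009E07Rik (0.965), Klf3 like Sfxn3 (0.969), Klf4 like Ahnak (0.971) and Klf6 like Plpbp (0.979). Klf10 was most like Tmem176a (0.977), Tmem176b (0.967) and Slc2a1 (0.963), and Klf13 like Arhgap25 (0.979). The nearest genes depend on the measure: by Spearman's rho 0 of the 3 nearest were the same for 7 of the 10 members, Egr1, Egr2 and Egr3 among them, and 2 of 3 were the same for Klf10 and Nab2 and 1 of 3 for Klf3.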

How the data were processed

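RNA-seq was analysed in 36 libraries, 2 for each of 3 constructs at 6 timepoints. The authors deposited whole-number counts per gene, 1 table for WT and R35A and 1 for R35K, made per the labels and the study's methods from single-end TruSeq Stranded mRNA reads with STAR 2.5.0a against mm10. They also deposited log2 values normalized with DESeq2 1.14.1, which their own size factors make from the counts, recovered here for 100% of the values (tolerance 1e-06). The annotation release and the strand setting of the counts are not given in the sources used here. Groups came from the sample labels.

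The counts were fitted in R 4.3.3 with edgeR 4.0.16 (TMM, filterByExpr, quasi-likelihood F test) over the 18 groups at once, with a common biological coefficient of variation of 3.27%. SEs were derived from the F statistic. Alternatives were DESeq2 1.42.0, its size factors, other filters and thresholds, separate fits, a replicate block, limma 3.58.1 on the log2 values, and each library left out. The fit was tested on simulated counts. Replicates of 1 group differed, by the median squared log ratio, by 1.07 to 2.31 times the sampling noise, so neither was a copy of the other's counts. This ratio cannot tell separate samples from repeated libraries of 1 sample. Depth was 13044456 to 23131776 counts per library, and intervals were not computed from counts. All 10 members were named. From each other list up to 4 called genes with the largest change were named, and 3 genes per member by likeness of pattern, except 1 listed gene that is not reported here. The members and lists were chosen with earlier results of these data known.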

Additional observations from a re-analysis of the deposited data

Results flagged for a closer look

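The change from 0 hpi differed between constructs, by the edgeR test of that difference itself, in 29 combinations of member and timepoint, given here as the log2 difference of the changes. R35A exceeded WT for Klf6 at 3 and 6 hpi (0.66 and 0.60), for Klf10 at 3 and 18 hpi (0.60 and 0.88) and for Klf2 at 18 hpi (0.61). At 120 hpi the change in R35A was below that in WT for Egr3 (−1.62), Egr2 (−1.24), Egr1 (−1.23), Klf10 (−0.98) and Nab2 (−0.72). R35K exceeded WT for Klf2 at 1, 3, 6 and 18 hpi (0.97, 0.92, 1.22 and 1.29), for Klf6 at the same timepoints (0.67, 0.76, 0.95 and 0.59), for Klf10 at 1, 3 and 6 hpi (0.81, 0.69 and 0.66), for Egr2 at 1 hpi (0.66) and for Klf13 at 18 hpi (0.60). At 120 hpi that in R35K was below WT for Egr3 (−1.26) and Egr2 (−0.68). R35K exceeded R35A for Klf2 at 1, 6 and 18 hpi (0.79, 0.87 and 0.68) and for Egr1 at 120 hpi (0.84). Groups of 2 libraries are too small for a test of single outlying libraries.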

How the results depend on the processing

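All 162 called values kept their direction under each alternative run. The fold threshold moved the counts most. At 2-fold, 15 values from 0 hpi were called with WT, 13 with R35A and 19 with R35K (32, 33 and 39 at 1.5-fold), 15 between successive timepoints (31), 3 between R35A and WT at the same timepoint (14), and 3, 3 and 0 in the change for R35A against WT, R35K against WT and R35K against R35A (10, 15 and 4). With no fold threshold, chosen after seeing the data, 83 steps, 39 direct differences and 35, 34 and 27 differences in the change passed, where 31, 14, 10, 15 and 4 did at 1.5-fold. Without that threshold the share of all genes ran from 2.8% to 78.9% over the steps and from 0.0347% to 50.1% over the direct differences. For the 3 differences in the change it ran from 21.3% to 33.2%, 24.6% to 30.8% and 11% to 21.6%. Leaving out 1 library gave 31 to 32, 33 to 34, 38 to 40, 31 to 33, 12 to 16, 9 to 14, 13 to 17 and 3 to 6 calls in the same order. A group left with 1 library was assumed to vary like the others. DESeq2, its size factors and limma each lost Klf2 (R35A against WT), Klf6 and Klf13 (R35K against WT), all at 18 hpi, where size factors moved the median of all genes by 0.123 in the WT change and −0.106 in the R35K against WT difference. No low-count filter lost 14 of the 162 and fits of the compared constructs alone 10. A minimum of 10 counts in all libraries of 1 group lost 0, as did the unadjusted p.

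Of 764 values without 1 library, 32 fell under 1.5-fold and kept their direction. In R35A against WT the change at 18 hpi of Klf2 was 0.46 without R35A 0 hpi replicate 1, 0.56 without R35A 18 hpi replicate 2, and 0.53 without WT 0 hpi replicate 2 or WT 18 hpi replicate 1. That of Klf6 at 6 hpi was 0.56 without R35A 0 hpi replicate 2, 0.55 without WT 0 hpi replicate 1 and 0.57 without WT 6 hpi replicate 2, and that of Klf10 at 3 hpi 0.58 without WT 3 hpi replicate 1. In R35K against WT Klf6 at 18 hpi was 0.51 and 0.56 without WT 18 hpi replicate 1 or 2 and 0.55 without WT 0 hpi replicate 1 or R35K 0 hpi replicate 2. Klf13 at 18 hpi was 0.52 and 0.58 without WT 18 hpi replicate 1 or 2 and 0.57 without R35K 18 hpi replicate 1, Egr2 at 1 hpi 0.57 without WT 0 hpi replicate 2, and Klf10 at 6 hpi 0.58 without WT 6 hpi replicate 1. Klf2 at 18 hpi in R35K against R35A was 0.48 without R35A 0 hpi replicate 2. In R35A against WT at the same timepoint, without R35A 1 hpi replicate 1 Klf10 was 0.58 and Nab2 0.55, without WT 1 hpi replicate 1 Klf3 was 0.58, and Nab2 at 120 hpi was −0.49 without WT replicate 1 or R35A replicate 2. Among changes from 0 hpi, Klf3 with WT at 3 hpi was 0.55 without WT 0 hpi replicate 2 or WT 3 hpi replicate 1, Klf2 with R35A at 18 hpi 0.55 without R35A 0 hpi replicate 1, Klf6 with R35A at 3 hpi 0.57 without R35A 0 hpi replicate 2, Egr3 with R35K at 6 hpi 0.57 without R35K 0 hpi replicate 2 or 6 hpi replicate 1, and Nab2 with R35K at 120 hpi 0.54 and 0.58 without R35K 120 hpi replicate 1 or 2. The step of Klf13 from 18 to 120 hpi with R35K was 0.58 without R35K 120 hpi replicate 2.

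With the replicate number as a block the counts were 32, 33, 39, 31, 14, 10, 15 and 4, and it changed none of the 162 calls. The number does not pair the libraries: over 10471 genes the median correlation of same-numbered deviations was −0.001 over 153 group pairs, and 16 were over 0.1.

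The split of all genes called higher and lower moved with the scaling by over 10 percentage points in 6 comparisons, given as higher and lower under TMM and then under DESeq2 size factors. It was 524 and 1791 against 831 and 1550 for the WT step from 6 to 18 hpi, and 1212 and 516 against 1037 and 695 for R35A against WT at 18 hpi. In the change it was 971 and 466 against 845 and 644 for R35A against WT at 18 hpi, 1539 and 764 against 1237 and 1108 for R35K against WT at 18 hpi, and for R35K against R35A 717 and 290 against 555 and 394 at 1 hpi and 810 and 208 against 614 and 312 at 6 hpi.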
